A study of Rattus norvegicus with 24 samples.

Results

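The 9 genes described here code for proteins that oligodendrocytes place in, or use to build, the myelin sheath: Mbp, Mog, Mag, Mobp, Cnp, Cldn11, Mal, Opalin and Ermn. They were taken by symbol from the locus annotation deposited with the count table, and all 9 were found among 26641 named loci (42334 loci in all). The annotation writes 8 of them letter for letter and gives Mbp as MBP, at 2 loci with the same interval. The locus with the higher mean was used for Mbp (mean normalized count 235437 over 24 libraries), and the other one (mean 61.5, range 32.5 to 90.1) was set aside.

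Messenger RNA was sequenced from 2 regions on the injured side, the perilesional cortex and the thalamus, of adult male Sprague-Dawley rats 3 months after lateral fluid-percussion injury, a model in which a pressure pulse on the exposed dura injures the brain beneath it. The TBI group held 6 injured rats, and the sham-operated group held 6 rats that had anaesthesia and the whole surgery with the craniectomy but no impact. Each rat gave 1 library per region, which makes 4 groups of 6 libraries (TBI cortex, sham cortex, TBI thalamus and sham thalamus). The sequenced TBI rats had been picked by MRI for a raised T2 signal around the lesion, so they stand for rats with lasting perilesional inflammation and not for all injured rats. Values are normalized counts, that is fragments per locus divided by a scaling factor of each library. The libraries held 30568927 to 54608922 fragments, and no member had fewer than 2109 fragments in any library. The rats are separate animals, so replicate spread is spread between rats.

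Myelin is oligodendrocyte membrane wound many times around an axon and pressed together, which insulates the axon and lets impulses jump from node to node. In the thalamus, fibre bundles run through the grey matter, whereas the cortex has most of its myelin in its deep layers and in the white matter below it. Mbp (myelin basic protein) and Mobp (myelin-associated oligodendrocyte basic protein) are basic proteins that lie between the inner faces of the compacted membrane. Cnp is an enzyme of the channels that stay free of compaction, and Ermn (ermin) is a cytoskeletal protein of mature oligodendrocytes. Mag sits on the innermost membrane that faces the axon, Mog on the outermost lamella, and Opalin is a transmembrane glycoprotein of oligodendrocytes. Cldn11 forms the tight junctions between lamellae, and Mal is a raft proteolipid that takes part in sorting membrane proteins. The transcription factors SOX10 and MYRF drive many of these genes in maturing oligodendrocytes.

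The promoters of the members are shown because the genes share a lineage and their regulators were measured in the same libraries. RefSeq (build GRCr8) gave a 300-base window, from 250 bases before to 50 bases after the gene start, for 7 of the 9 members; Mog and Ermn had none. The letters CTGGCAC or CTGGTAC, which have been reported for MYRF, were searched on both strands. They occurred in 5 of the 7 members (Mag, Cnp, Cldn11, Opalin and Mal) and in 6.78% of all 33469 windows. The 5 windows below are each 30 bases, on the strand of the gene, with these letters in capitals; Mag and Cnp carry them on the gene's strand, and the other three carry the reverse complement.
Mag: gcaggcggcccCTGGCACccagggggcaga
Cnp: acagctgcttcCTGGCACccaggtttcgat
Cldn11: ttccacaccctGTACCAGagcctgacccgc
Opalin: acagacctacaGTGCCAGtgagagagaagc
Mal: gttttagggctGTGCCAGaggtgattcagc

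The Mag window (chr1:95291120-95291149, minus strand) began 105 bases before the gene start and the Cnp window (chr10:86011369-86011398, plus strand) began 135 bases before it. The Cldn11 (chr2:114149641-114149670, minus strand) and Mal (chr3:135341531-135341560, minus strand) windows began 131 and 137 bases before the start, and the Opalin window (chr1:249858189-249858218, minus strand) began 28 bases before it. Mag and Cnp shared a run of 13 bases around the letters, CCTGGCACCCAGG, which was in 6 of the 33469 windows; it was noticed after the sequences had been read. The SOX core letters ACAAT were in 2 of the 7 members (Mbp and Opalin) and in 33.7% of all windows. The E-box letters CAGCTG or CATCTG were in 3 of the 7 members (Mbp, Cnp and Opalin) and in 29.1% of all windows.

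Mobp had neither the MYRF letters nor ACAAT in its window. The letters ACAAAG are another form that SOX and TCF/LEF factors are known to bind. They were in 5 of the 7 members (Mbp, Mag, Mobp, Cnp and Opalin) and in 18.8% of all windows. Mbp, Mag and Cnp had 1 copy and Opalin had 2. Mobp had 8 copies, all 8 counted over both strands, and 3 of all windows had 8 or more. This motif was added after the sequence had been seen. The stretch below (chr8:128746982-128747116, plus strand, 135 bases that begin 250 bases before the gene start) holds 7 of the copies, in capitals as the reverse complement.
Mobp: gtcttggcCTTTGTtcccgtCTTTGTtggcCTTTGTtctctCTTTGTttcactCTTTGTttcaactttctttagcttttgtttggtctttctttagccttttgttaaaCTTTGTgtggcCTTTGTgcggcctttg

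The deposited annotation gives each locus as 1 interval, and the intervals of the loci used are given here. Mbp lies on chromosome 18 at 78473295 to 78504226, Mog on chromosome 20 at 4044676 to 4061113, and Mag on chromosome 1 at 90500751 to 90516399. Mobp lies on chromosome 8 at 128025109 to 128122001, Cnp on chromosome 10 at 88284044 to 88290610, and Cldn11 on chromosome 2 at 135520036 to 135533392. Mal and Ermn are both on chromosome 3, at 127099277 to 127123286 and 49141854 to 49198953, and Opalin is on chromosome 1 at 267766694 to 267917048. The submitters' processing notes name the build Rnor_5.0 for these positions, which is not the build of the promoter windows above.

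All 9 members were higher in the thalamus than in the cortex, with no overlap between the libraries of the 2 regions, in sham-operated and in TBI rats alike. Together they made up 0.42% to 0.578% of the counts of a sham cortex library and 1.28% to 1.86% of a sham thalamus library. The corresponding ranges in TBI rats were 0.446% to 0.603% in the cortex and 1.31% to 1.78% in the thalamus. Differences between groups were tested with limma on log2(normalized count + 1) over all named loci with a mean of at least 10, with Benjamini-Hochberg adjustment over those loci and a threshold of 0.05. In sham-operated rats, 9 of 9 members passed this test as higher in the thalamus, against 33.9% of all 15582 loci tested. The groups were apart for 9 of 9 members, against 43.1% of all loci. In TBI rats the members again numbered 9 of 9 for both counts, against 31.0% of 15737 loci called higher and 36.0% of loci with groups apart.

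**Figure D1:**
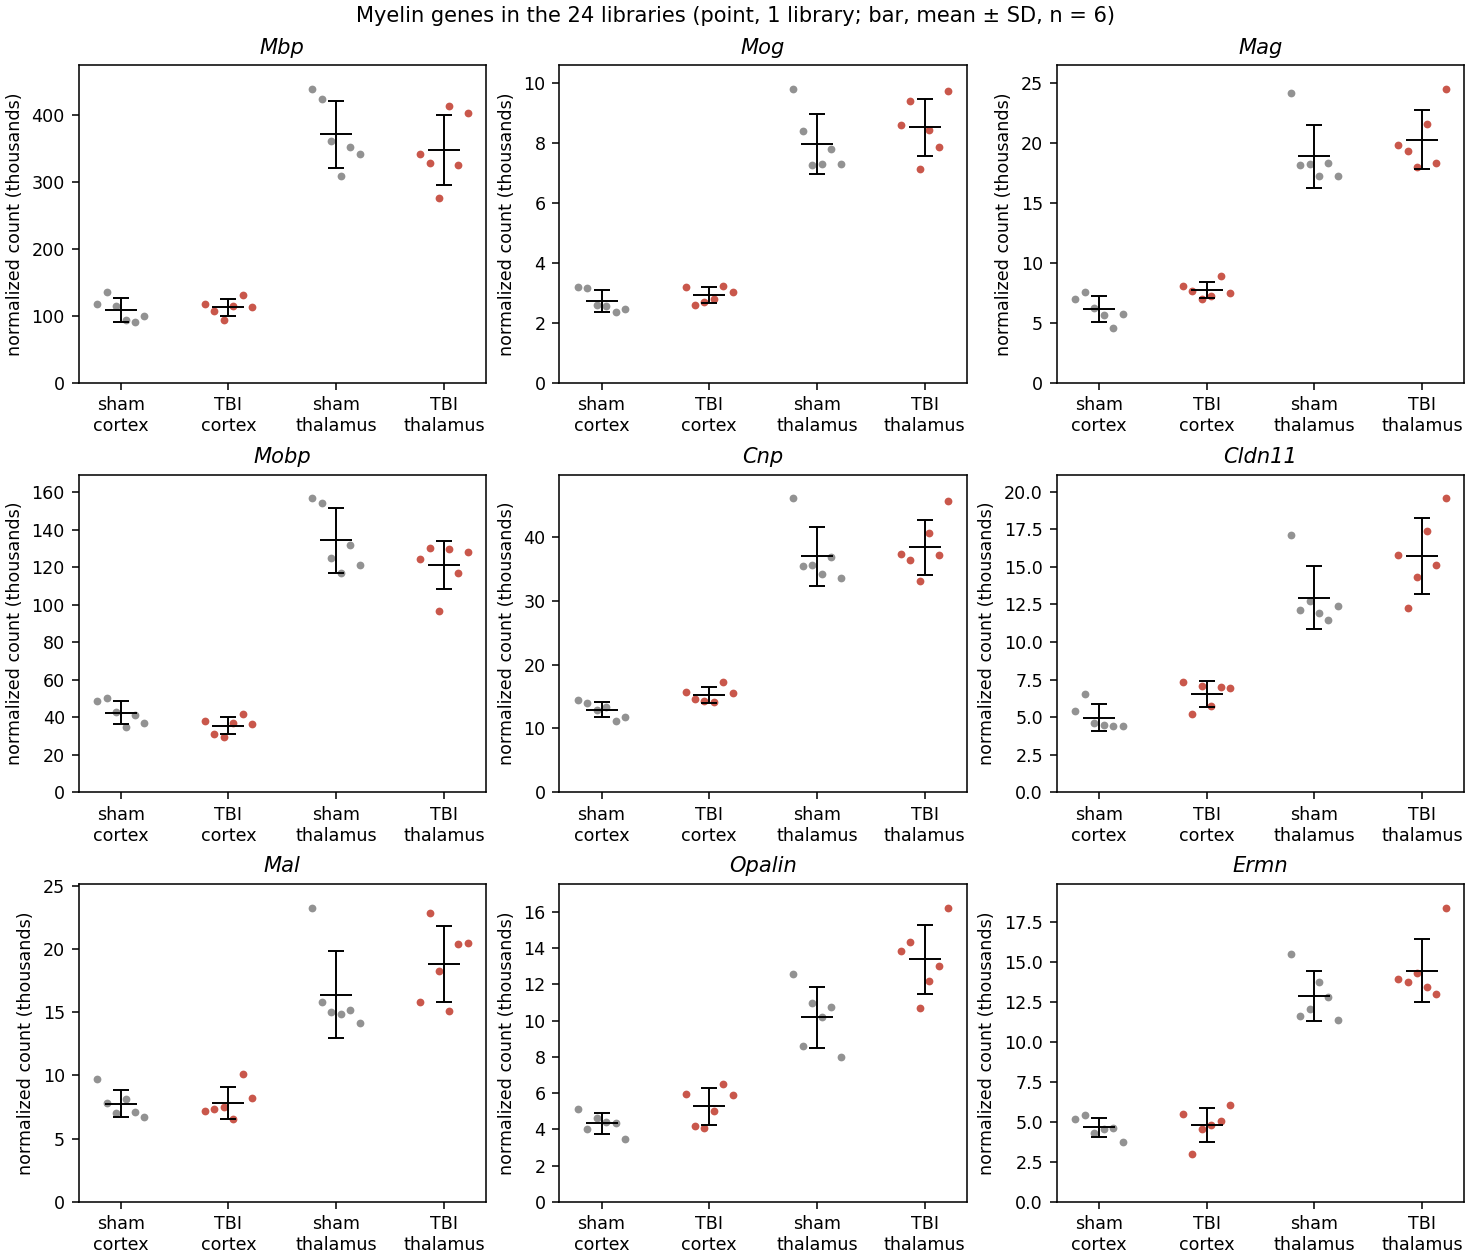
Normalized counts (linear axis from 0) of the 9 members in each of the 24 libraries; grey points are sham-operated rats, red points TBI rats, and bars give the mean ± SD of 6 libraries. Every thalamus library lies above every cortex library for each gene, and TBI and sham libraries overlap within each region; Mbp in sham rats averages 109029 in the cortex and 371583 in the thalamus.

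By estimate, the regional gap was largest for the basic proteins and smallest for Mal. Mbp differed by 1.77 ± 0.11 on the log2 scale in sham-operated rats (SE, 3.42-fold, adjusted p = 7.3e-10, limma), and within single rats the thalamus held 3.11 to 3.90 times the cortical count. Mobp differed by 1.66 ± 0.098 (3.17-fold, adjusted p = 6e-10, limma). Mag (1.63 ± 0.11), Mog (1.55 ± 0.091), Cnp (1.51 ± 0.079) and Ermn (1.47 ± 0.090) followed, each between 2.77-fold and 3.09-fold. Cldn11 differed by 1.39 ± 0.11 and Opalin by 1.23 ± 0.11. For Mal the difference was 1.07 ± 0.11 (2.10-fold, adjusted p = 6.2e-07, limma), and the thalamus held 1.82 to 2.40 times the cortical count within single sham rats.

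In TBI rats the order differed in its details. Mobp had the largest estimate there (1.77 ± 0.096, 3.41-fold), followed by Mbp (1.62 ± 0.11) and Ermn (1.61 ± 0.14). Cldn11 (1.26 ± 0.11) and Mal (1.27 ± 0.11) were the smallest. No test of these orders was made.

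In the perilesional cortex, 3 of the 9 members were higher in TBI rats: Cldn11, Mag and Cnp. Their estimates were between 1.18-fold and 1.32-fold. The other 6 did not pass the test, and among them were the abundant structural genes Mbp and Mobp, Mobp with an estimate below 0. Over all 15493 loci tested in the cortex, 14.3% were called higher and 14.9% lower, so 3 of 9 higher is above the background share and 0 of 9 lower is below it. At an unadjusted p under 0.05, 4 members were higher and 1 lower by limma, and edgeR and DESeq2 on recovered fragments also called 3 higher and 0 lower. No member had TBI and sham groups apart, against 12.5% of all loci. The median log2 change was 0.11 over the 9 members and -0.0096 over all loci tested.

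Cldn11, the tight junction protein between lamellae, ranged from 4389 to 6561 in sham cortex (median 4522) and from 5194 to 7344 in TBI cortex (median 6953). Sham rats 26 and 32 were the 2 that reached into the TBI range. The log2 change was 0.40 ± 0.11 (SE, n = 6 against 6, 1.32-fold, adjusted p = 0.012, limma). Mag, the adhesion protein that faces the axon, ranged from 4609 to 7582 in sham cortex (median 5990.3) and from 6951 to 8869 in TBI cortex (median 7578). The same sham rats, 26 and 32, overlapped with TBI rats. Its log2 change was 0.34 ± 0.099 (1.27-fold, adjusted p = 0.018, limma). Cnp, the enzyme of the uncompacted channels, ranged from 11229 to 14420 in sham cortex (median 13103) and from 14148 to 17308 in TBI cortex (median 15095). Only sham rat 26 exceeded the lowest TBI library. The log2 change was 0.24 ± 0.067 (1.18-fold, adjusted p = 0.015, limma). All 3 calls held when any single library was left out and under every other scaling, filter, pseudocount and count test tried, and none held at an adjusted p under 0.01.

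Opalin ranged from 3445 to 5111 in sham cortex (median 4380.5) and from 4098 to 6507 in TBI cortex (median 5442). TBI rats 24, 45 and 52 lay inside the sham range and the other 3 above it. The log2 change was 0.27 ± 0.12 (adjusted p = 0.096, limma); it passed the threshold without TBI rat 24 (adjusted p = 0.041) or without TBI rat 45 (adjusted p = 0.041). Mobp, the second basic protein of compact myelin, ranged from 34906 to 50267 in sham cortex (median 41833) and from 29339 to 41617 in TBI cortex (median 36521). Sham rats 26, 32 and 34 lay above every TBI library, and TBI rats 24 and 45 lay below every sham library. Its log2 change was -0.25 ± 0.099 (adjusted p = 0.066, limma). Without sham rat 38, sham rat 55 or TBI rat 56 it passed the threshold (adjusted p = 0.033, 0.049 and 0.037).

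The remaining 4 members lay close to the sham level in the cortex. Mbp ranged from 90518 to 136478 in sham cortex and from 93658 to 130937 in TBI cortex, a log2 change of 0.058 ± 0.099 (adjusted p = 0.69, limma). Mog ranged from 2356 to 3202 and from 2607 to 3230.1, with a change of 0.11 ± 0.084 (adjusted p = 0.36). Mal, the raft proteolipid, ranged from 6737 to 9696 and from 6549 to 10109.5, with a change of 0.0069 ± 0.10 (adjusted p = 0.97). For Ermn the TBI range (2965 to 6055) was wider than the sham range (3758 to 5413), and the change was 0.029 ± 0.14 (adjusted p = 0.90). TBI rat 24 had the lowest Ermn and Mog counts of its group.

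**Figure D2:**
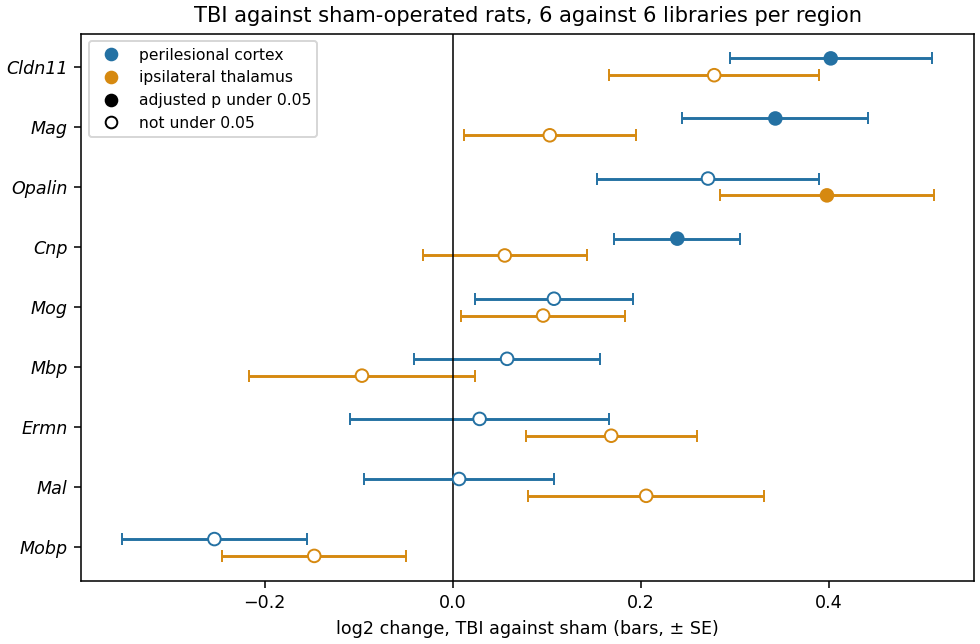
Log2 change of each member in TBI against sham-operated rats with ± 1 SE (x axis), in the perilesional cortex (blue) and the ipsilateral thalamus (orange); filled points passed the adjusted p threshold. Cldn11 (0.40), Mag (0.34) and Cnp (0.24) are filled in the cortex and Opalin (0.40) in the thalamus, and Mobp is the only member with an estimate below 0 in both regions.

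In the ipsilateral thalamus, Opalin was the 1 member of 9 that passed the test, and it was higher in TBI rats. It ranged from 7984 to 12591 in sham thalamus (median 10473) and from 10668 to 16234 in TBI thalamus (median 13426). TBI rats 22, 24, 56 and 63 lay above every sham library. The log2 change was 0.40 ± 0.11 (1.32-fold, adjusted p = 0.014, limma). Over all 15564 loci tested in the thalamus, 14.5% were called higher and 20.9% lower with the deposited scaling, and TMM scaling turned that split (2259 higher and 3257 lower, against 2794 higher and 2355 lower). So 1 of 9 higher is near the background share and 0 of 9 lower is below it. At an unadjusted p under 0.05, 2 members were higher and 0 lower by limma; edgeR and DESeq2 called 2 higher and 0 lower. No member had groups apart, against 18.2% of all loci, and the median log2 change was 0.10 over the members and -0.023 over all loci.

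Sham rat 26 stood apart in the thalamus, with the highest count of its group for all 9 members. Cldn11 ranged from 11497 to 17106 in sham thalamus (median 12237) and from 12240.1 to 19571 in TBI thalamus (median 15465). Apart from rat 26, no sham library exceeded 12725, and 5 of the 6 TBI libraries lay above that value. The log2 change of Cldn11 was 0.28 ± 0.11 (adjusted p = 0.067, limma) with all libraries and 0.36 without sham rat 26 (adjusted p = 0.011). Leaving out TBI rat 24 gave 0.35 (adjusted p = 0.022), and Cldn11 also passed under TMM scaling (adjusted p = 0.034), upper quartile scaling (0.037), edgeR (0.037) and DESeq2 (0.022). Mal ranged from 14150.5 to 23256 in sham thalamus and from 15051 to 22825 in TBI thalamus. Its change was 0.21 ± 0.13 (adjusted p = 0.22, limma), and 0.31 without sham rat 26 (adjusted p = 0.024). The number of members called higher in the thalamus was thus 1 with all libraries, 3 without sham rat 26 and 2 without TBI rat 24.

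The other 6 members showed no call in the thalamus in any setting. Ermn ranged from 11339 to 15513 in sham and from 12963 to 18393 in TBI thalamus, where TBI rat 63 lay far above the rest, and its change was 0.17 ± 0.091 (adjusted p = 0.17, limma). Mag ranged from 17196 to 24137 and from 17931 to 24488 (0.10 ± 0.091, adjusted p = 0.41). Mog ranged from 7276 to 9815 and from 7138 to 9728 (0.096 ± 0.087, adjusted p = 0.42). These 3 genes had estimates above 0 and overlapping groups. Cnp ranged from 33581 to 46096 and from 33102 to 45618 (0.055 ± 0.087, adjusted p = 0.66). Mbp ranged from 309143 to 439639 and from 275892 to 414169 (-0.096 ± 0.12, adjusted p = 0.57). Mobp ranged from 116892 to 156762 and from 96774 to 130240.0 (-0.15 ± 0.098, adjusted p = 0.27). Both basic proteins thus had estimates below 0 in the thalamus, with groups that overlapped widely and TBI rat 45 at the bottom of its group.

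The injury effect was compared between the regions with an interaction term over all 24 libraries. None of the 9 members passed that test by limma, against 7.26% of 15678 loci in either direction. None reached an unadjusted p under 0.05 either, and edgeR and DESeq2 also called 0. The estimates (thalamus effect minus cortex effect) ran from -0.24 ± 0.14 for Mag (adjusted p = 0.34) to 0.20 ± 0.17 for Mal (adjusted p = 0.54). The standard errors ran from 0.11 to 0.18. That Cldn11, Mag and Cnp passed only in the cortex and Opalin only in the thalamus is therefore not shown to be a difference between the regions.

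Ratios between members were compared, and in the cortex those with Mobp were most often apart between the groups. A ratio of 2 genes inside 1 library does not depend on the scaling of that library. Of the 36 ratios between members in the cortex, 9 had TBI and sham libraries apart, against 12.0% of all 120008778 pairs of loci. Among them were 6 of the 8 ratios with Mobp and 3 of the 28 ratios without it. The share without Mobp was near that of all pairs. In the thalamus 2 of the 36 ratios were apart, both with Mobp, a share below the 16.5% of all pairs. Mobp was looked at here after its values had been seen, and these ratios are a description with no test.

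Mobp per Mag was 6.18 to 8.92 in sham cortex (median 6.73) and 4.09 to 5.08 in TBI cortex (median 4.71). Mobp per Mbp, the other basic protein, was 0.368 to 0.454 in sham cortex (median 0.371) and 0.293 to 0.324 in TBI cortex (median 0.319). Mobp per Cnp was 2.61 to 3.66 and 2.06 to 2.60, so all 6 TBI rats lay below all 6 sham rats in these 3 ratios. The ratios of Mobp to Mog, Cldn11 and Opalin were apart in the same direction, and those to Mal and Ermn overlapped. In the thalamus, Mobp per Mag was 6.49 to 8.49 in sham and 5.24 to 6.73 in TBI rats, an overlap of sham rat 26 with TBI rats, and Mobp per Mbp overlapped widely (0.345 to 0.378 and 0.314 to 0.397). The thalamic ratios that were apart were those of Mobp to Mog and Mobp to Opalin. The 3 cortical ratios apart without Mobp were Mbp to Mag, Mbp to Cldn11 and Mog to Mag, and each was lower in TBI rats. The size of a ratio also reflects transcript length, so only its difference between groups can be read.

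**Figure D3:**
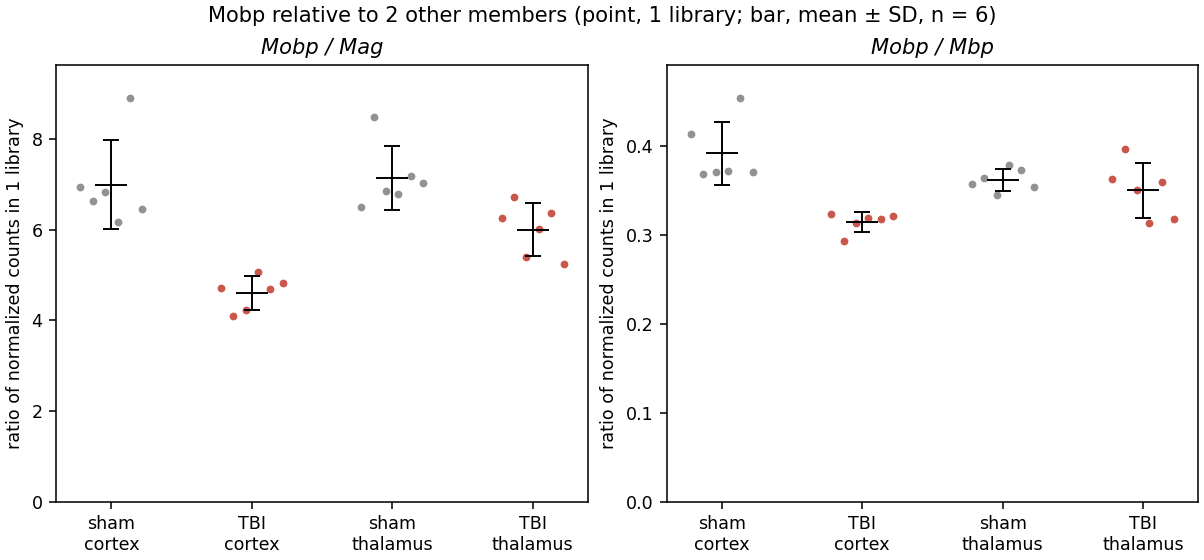
Ratio of the normalized count of Mobp to that of Mag (left) and of Mbp (right) inside each library, on linear axes from 0; points are libraries and bars the mean ± SD of 6. In the cortex the 6 TBI libraries (4.09 to 5.08 and 0.293 to 0.324) lie below the 6 sham libraries (6.18 to 8.92 and 0.368 to 0.454), and in the thalamus the groups overlap.

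Within groups, the members rose and fell together from library to library, each rat giving 1 library per region. After subtraction of group means, the 36 pairwise correlations over the 24 libraries had a median r of 0.647 and ran from 0.307 to 0.909. Mog followed the mean of the other 8 most closely (r = 0.924) and Mal least (r = 0.577). The libraries share tissue blocks, dissection and scaling, and these values are a description. Averaged over the 9 members, sham rat 26 was above its group mean in both regions (0.21 in the cortex and 0.34 in the thalamus, log2), and TBI rat 63 was above it in both (0.092 and 0.24). TBI rat 45 (-0.13 and -0.19) and sham rat 55 (-0.18 and -0.15) were below it in both. TBI rat 56 was high in the cortex only (0.21 and -0.054), and TBI rat 24 was low in the cortex only (-0.21 and 0.0061). The signs also differed between the regions in sham rat 32 (0.21 and -0.0085), TBI rat 22 (0.10 and -0.022) and TBI rat 52 (-0.068 and 0.021).

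**Figure D4:**
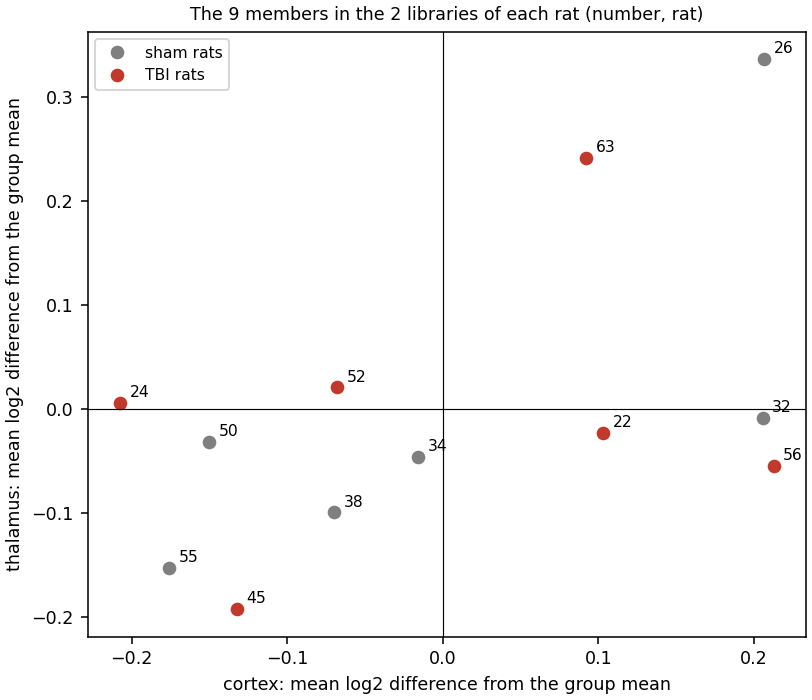
Mean log2 difference of the 9 members from their group mean, in the cortex (x axis) and the thalamus (y axis) of the same rat; numbers name the rats, grey points are sham-operated and red points TBI rats. Sham rat 26 (0.21 and 0.34) is high in both regions, and sham rat 55 (-0.18 and -0.15) and TBI rat 45 (-0.13 and -0.19) are low in both.

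The other named loci were ranked by likeness to the members, that is by Pearson correlation with the mean log2 value of the 9 members over the 24 libraries, after subtraction of group means, among 15669 loci. Among the first 10 was Gjb1, a gap junction protein of oligodendrocytes (r = 0.891), followed by a joined locus that includes Sox2 (0.868). Tmem125 (0.868), Tmem88b (0.861), Evi2a (0.840), Gpr37 (0.827), Rnf43 (0.825), St18 (0.823) and Tmprss5 (0.813) were also among them. Evi2a and Rnf43 passed as higher in both regions (0.19 and 0.23 in the cortex, 0.26 and 0.26 in the thalamus). The Sox2 locus (0.24) and St18 (0.30) passed as higher in the thalamus, where Tmprss5 passed as lower (-0.39). With single libraries left out, the cortical call of Evi2a and the thalamic call of Tmprss5 were each lost in 7 of 12 omissions, that of St18 without sham rat 32, sham rat 55 or TBI rat 63 (adjusted p = 0.056 to 0.060, limma) and the cortical call of Rnf43 without TBI rat 22 (adjusted p = 0.052, limma).

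Among 37 other oligodendrocyte and myelin genes that could be tested, 12 were higher and 0 lower in the cortex of TBI rats, and 8 were higher and 1 lower in the thalamus. All loci tested gave 14.3% higher and 14.9% lower in the cortex, and 14.5% higher and 20.9% lower in the thalamus. The median log2 change over these 37 was 0.17 in the cortex and 0.11 in the thalamus. Klk6, a protease of oligodendrocytes, had the largest cortical change (0.79 ± 0.14, adjusted p = 0.00067, limma), with 449 to 747 in sham and 765 to 1188 in TBI cortex, so the groups were apart. Tf, which codes for the iron carrier transferrin, rose in both regions, by 0.59 ± 0.079 in the cortex (adjusted p = 9.7e-05, limma) and 0.60 ± 0.098 in the thalamus (adjusted p = 0.00034, limma). Its groups were apart in both (17481 to 22904 against 25783 to 33610 in the cortex). Ptgds rose in the cortex (0.66 ± 0.18, adjusted p = 0.013, limma), with TBI rat 45 at 190489 and the next TBI library at 95722, and did not pass when all 24 libraries shared 1 fit (adjusted p = 0.24, and 0.23 with the rat as replicate block, limma); this gene is also expressed by meninges and choroid plexus. In the thalamus Tspan2 (0.45), a tetraspanin, and Aspa (0.40), the enzyme that splits N-acetylaspartate, were the next largest, and Gal3st1 (-0.34), which makes sulfatide, was the 1 that fell; edgeR and DESeq2 each called 11 higher and 0 lower there. Gal3st1 was no longer called under TMM or upper quartile scaling, edgeR or DESeq2, nor in 8 of the 12 single-library omissions.

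Of 14 lineage regulators, 4 were higher and 0 lower in the cortex, and 1 was higher and 2 lower in the thalamus. There edgeR and DESeq2 each called 3 higher. By limma, 14.3% of all cortical loci were higher and 14.9% lower, and 14.5% of all thalamic loci were higher and 20.9% lower. Both thalamic limma counts of this list are thus below the share of all loci and are not read as its trait. Sox10 rose in the cortex (0.51 ± 0.11, adjusted p = 0.0041, limma), from a sham range of 760 to 1346 to a TBI range of 1296 to 1821, and stood at 0.013 ± 0.098 in the thalamus (adjusted p = 0.93). Myrf rose in the cortex (0.45 ± 0.096, adjusted p = 0.0032, limma), from 1931 to 3186 in sham to 2819 to 3586 in TBI rats, and its thalamic change was 0.24 ± 0.096 (adjusted p = 0.070, limma), past the threshold under TMM scaling (adjusted p = 0.031), edgeR (0.026) and DESeq2 (0.019). Neither gene passed the test of a difference between regions. Nkx6-2 rose in the cortex (0.62 ± 0.22, adjusted p = 0.049, limma), a call lost when any of 9 of the 12 libraries was left out. Tcf7l2, a TCF/LEF factor of newly formed oligodendrocytes that thalamic neurons also express, rose in the cortex (0.46 ± 0.096) and fell in the thalamus (-0.23 ± 0.081, adjusted p = 0.039, limma), and the regions differed (-0.69 ± 0.12, adjusted p = 0.001, limma). The thalamic call of Tcf7l2 was lost under TMM scaling, edgeR and 7 of the 12 single-library omissions. Olig1 and Olig2 were not called in either region (0.22 and 0.14 in the cortex, 0.0021 and 0.089 in the thalamus).

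Of 12 genes of oligodendrocyte precursors that could be tested, 5 were higher and 0 lower in the cortex, and 3 were higher and 1 lower in the thalamus, where edgeR and DESeq2 each called 5 higher. For these 3 lists the counts of 0 lower in the cortex were also 0 by edgeR and DESeq2 and at an unadjusted p under 0.05. Beside the counts in this paragraph, 14.3% of all loci were higher and 14.9% lower in the cortex. In the thalamus these shares were 14.5% and 20.9%, so 1 of 12 precursor genes lower is below the share. C1ql1 (0.76), Bmp4 (0.45) and Cspg4 (0.34), the NG2 proteoglycan, led in the cortex. Cspg4 (0.31), Bmp4 (0.29, lost in 7 of 12 omissions) and Tmem100 (0.24) led in the thalamus, where Cspg5, at a locus joined with Smarcc1, was lower (-0.20). Of 8 myelin-derived inhibitors of axon growth and their receptors, Tnfrsf19 was higher in both regions (0.25 and 0.36). Rtn4, which codes for Nogo, and Omg were lower in the cortex (-0.40 and -0.32), and the receptor genes Rtn4r (-0.60), Lingo1 (-0.50) and Rtn4rl1 (-0.43) were lower in the thalamus. Of 9 genes of the node and paranode, which are mostly made by neurons, 7 were lower in the cortex and 6 in the thalamus, and 0 were higher by limma, edgeR or DESeq2, also at an unadjusted p under 0.05. The juxtaparanodal potassium channels Kcna1 (-0.40 and -0.91) and Kcna2 (-0.47 and -0.75) and the nodal sodium channel Scn8a (-0.33 and -0.83) led that list in both regions.

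**Figure D5:**
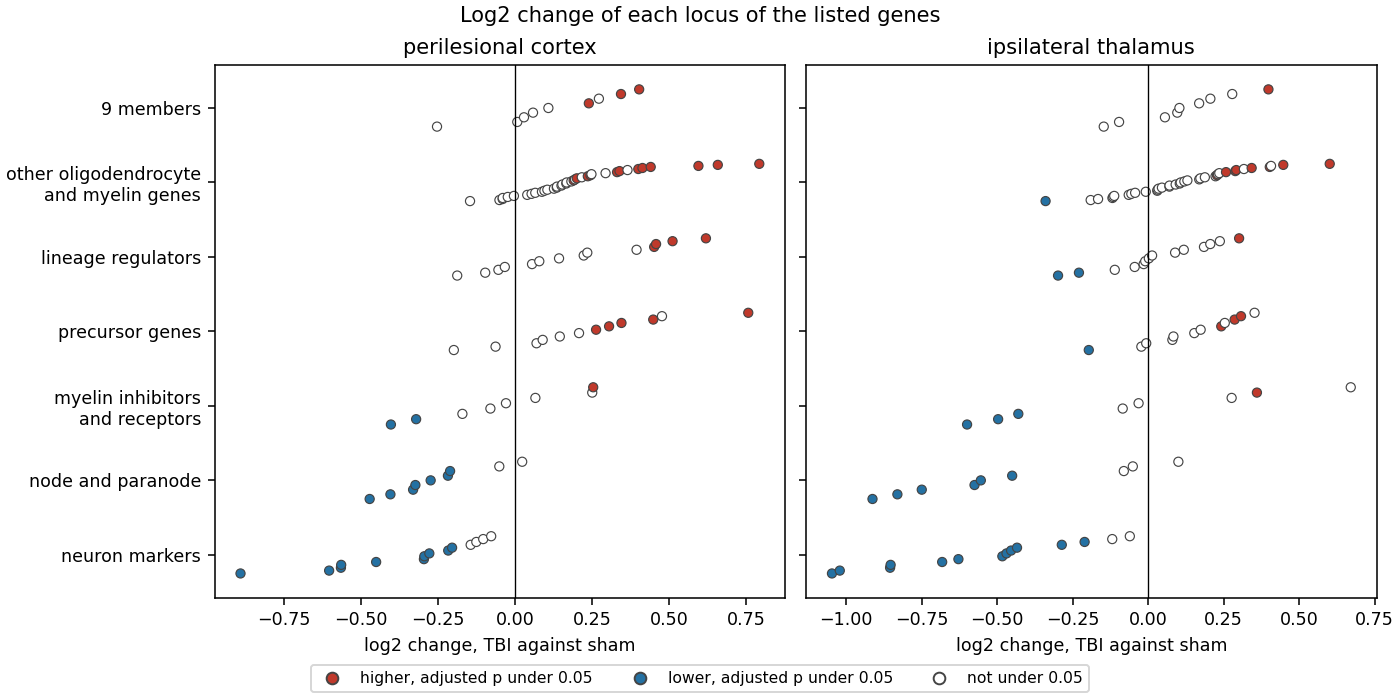
Log2 change of each tested gene in TBI against sham-operated rats, by list (rows), in the cortex (left) and thalamus (right); red and blue points passed the test as higher or lower, and white points did not. The 9 members and the oligodendrocyte lists lie mostly above 0, except that the lineage regulators in the thalamus lie around 0 (8 above and 6 below). The neuron markers all lie below 0, and of the node and paranode list Gldn (0.023 and 0.10) is the 1 gene above 0.

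Markers of other cell types moved with the injury in the same libraries. The marker counts below stand beside cortical shares of all loci of 14.3% higher and 14.9% lower. The matching thalamic shares were 14.5% and 20.9%. All 14 neuron markers had estimates below 0 in both regions, and 10 passed as lower in the cortex and 12 in the thalamus. Their summed count was 461566 to 490109 in sham and 338880 to 430660 in TBI cortex, and 307486 to 366406.5 in sham and 207243 to 260926 in TBI thalamus; Snap25, a synaptic protein, fell by 0.56 and 0.63 on the log2 scale. Of 13 microglia markers, 12 were higher in the cortex and 13 in the thalamus, with summed counts of 17013 to 18062 against 24147 to 27159 and 18239 to 23703 against 36701 to 47355 (Aif1 0.66 and 1.11). Of 9 astrocyte markers, 5 were higher and 2 lower in the cortex and 5 were higher in the thalamus, and Gfap rose by 2.26 in both. Their summed count was 375499 to 396552 in sham and 408259 to 453089 in TBI cortex. In the thalamus the sum was 285676.5 to 318670 in sham and 405577 to 466279 in TBI rats. In the cortex 5 estimates were above 0 and 4 below. There Gfap was 10322 to 15037 in sham and 38135 to 74736.5 in TBI rats. Slc1a2, with the largest counts of the list, was 170694 to 200734 in sham and 138162 to 180822 in TBI cortex. The higher cortical sum is thus not a rise of the whole list. The part of these shifts in the members' values was not tested. In bulk tissue, fewer cells of a type and less RNA per cell cannot be told apart.

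Of 8 endothelial markers, 1 was higher in the cortex and 3 in the thalamus, or 6 there by DESeq2 (summed counts 16522 to 19434 against 16882 to 19606, and 13586 to 16815 against 15814 to 21757), and Cldn5 was not called. Over all loci 14.3% were higher in the cortex and 14.5% in the thalamus, so 1 of 8 in the cortex is near that share. The 7 choroid plexus markers were not called by limma, edgeR or DESeq2 in either region (1 was higher in the cortex at an unadjusted p under 0.05 by limma). Their summed count ran from 624 to 256576 over single libraries, the latter in the thalamus library of TBI rat 45, and Ttr there was at 229743. Sham libraries were high too, at 106783.5 (rat 50) and 67445 (rat 34) in the thalamus. In the sham cortex, rats 26 and 34 reached 23420 and 11160. Schwann cell markers, which mark peripheral myelin, were low, with sums of 89.4 to 229.6 per library. Among them Ncmap was at 0 in all sham libraries and all TBI thalamus libraries and at most 0.832 in TBI cortex. Of the 3 that could be tested, Pmp2, which astrocytes and other cells can also express, was higher in the thalamus (1.23), at 14.8 to 23.9 in sham and 35.7 to 49.8 in TBI rats; Ncmap and Pmp2 were named after their values had been seen. None of the 3 was called in the cortex by limma or DESeq2 (1 by edgeR, and 1 at an unadjusted p under 0.05 by limma).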

How the data were processed

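The authors aligned stranded, poly(A)-selected reads with TopHat2 2.0.11 and Bowtie2 2.2.2 and built loci with Cufflinks 2.2.1. The deposited signal values are fragment counts per locus divided by a size factor of each library. In each library, 100% of the low values (up to 20.5 steps) were whole multiples of 1 step within 0.1, so whole fragments could be recovered; edgeR on them called 4435 cortical and 5122 thalamic loci. The methods name the build RGSC3.4 and the processing notes Rnor_5.0. Loci without a gene name (15693, 1.90% to 2.23% of a library's counts) were left out of the tests.

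Members were matched to symbols without regard to case. The list genes Anln, Lhfpl3 and Cntnap2 matched no locus name. The members and gene lists were chosen with earlier results of these data known. Differences were fitted with limma 3.58.1 (R 4.3.3) on log2(normalized count + 1), with an intensity trend, over all named loci with a mean of at least 10 in the libraries compared, and adjusted after Benjamini and Hochberg (threshold 0.05). Named from each list were up to 3 loci with the largest change per direction and region, 4 fixed lineage genes, 5 defining markers and loci from the 10 most like the members; other genes that the rule named are not reported here. Alternatives were TMM and upper quartile scaling, no minimum or one of 50, pseudocounts 0.1 and 5, a threshold of 0.01, edgeR 4.0.16 and DESeq2 1.42.0 on recovered fragments, the rat as replicate block, and each library or rat left out. The rat numbers pair cortex and thalamus libraries because both come from 1 animal; over all loci the correlation of a rat's 2 deviations from the group means had a median of 0.187 (0.0039 to 0.569, 12 rats). The limma, edgeR and DESeq2 fits were tested on simulated data, drawn without a rat effect. The comparison of the regions in TBI rats and the other alternatives were not simulated. Promoter sequences are from RefSeq (GRCr8) and were searched as letters.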

Additional observations from a re-analysis of the deposited data

Results flagged for a closer look

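A library was set apart where its gap to the nearest of the other 5 exceeded 0.625 of the range of its group of 6, which chance gives in about 1 of 20 groups. Over the 36 groups of the members this held for 5. In sham thalamus, rat 26 was above the rest for Mag (24137, next 18327), Cnp (46096, next 36876), Cldn11 (17106, next 12725) and Mal (23256, next 15801). These are 1 library and not separate events. In TBI thalamus, rat 63 was above the rest for Ermn (18393, next 14283).

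Over 156 groups of other named genes, 10 were set apart, which is near the 1 of 20 that chance gives. TBI rat 45 was high for Ttr in the cortex (28302) and thalamus (229743), and for Ptgds in the cortex (190489) and thalamus (134575), and sham rat 34 was high for Ptgds in the thalamus (42468). Sham rat 32 was high for Tcf7l2 in the cortex (264) and Tmem100 in the thalamus (1868). TBI rat 24 was high for C1ql1 in the cortex (545), TBI rat 52 was high for Bmp4 in the thalamus (635), and sham rat 50 was low for Cspg4 in the cortex (851).

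The injury effect differed between the regions for 7 genes of the myelin and lineage lists by the interaction test in limma, given as thalamus effect minus cortex effect on the log2 scale. They were 1 of 37 other oligodendrocyte and myelin genes, 2 of 14 lineage regulators and 0 of 12 precursor genes. Of 8 inhibitors and receptors 1 was higher and 1 lower, and of 9 node and paranode genes 2 were lower. The share over all 15678 loci was 7.26%, so the 7 genes are not read as a trait of these lists. Tcf7l2 (-0.69, adjusted p = 0.001) and Rtn4rl1 (-0.40, adjusted p = 0.0018) kept their calls whichever rat was left out. Scn8a (-0.50, adjusted p = 0.024) lost it in 5 and Sptbn4 (-0.52, adjusted p = 0.021) in 3 of 12 omissions. Rtn4 (0.32, adjusted p = 0.034) lost it in 7, Tmem63a (-0.37, adjusted p = 0.034) in 7 and Carm1 (-0.26, adjusted p = 0.041) in 8. With the rat as replicate block, Tmem63a and Carm1 were no longer called.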

How the results depend on the processing

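The 9 of 9 members higher in the thalamus and the 0 of 9 past the interaction test were the same under every alternative run. In the cortex 3 members were higher under every alternative other than an adjusted p under 0.01, which left 0, with 3 to 4 when single libraries were left out; the number lower was 0, and 0 to 1 with single libraries left out (1, Mobp, without sham rat 38, sham rat 55 or TBI rat 56). In the thalamus the number higher was 1, against 0 at an adjusted p under 0.01 and 2 under TMM scaling, upper quartile scaling, edgeR and DESeq2, and 1 to 3 with single libraries left out (3 without sham rat 26, 2 without TBI rat 24). With the rat as replicate block the numbers of members called were the same in all comparisons (3 and 1 higher in cortex and thalamus, 0 for the interaction, 9 for the regions), as was the fit of all 24 libraries without it; among the other named genes, the block ended the interaction calls of Tmem63a and Carm1, and the cortical call of Ptgds ended in the fit of all 24 libraries with or without it. Small estimates changed sign without a call. The interaction of Mog was 0.014 under upper quartile scaling, 0.033 with edgeR and 0.010 with DESeq2. Gpr37 in the thalamus was 0.041 with TMM, 0.032 with upper quartile scaling, 0.043 with edgeR and 0.023 with DESeq2, and Ttr there was 0.61 with edgeR and 0.57 with DESeq2. With single libraries left out, the cortex gave -0.070 to 0.074 for Mal, -0.044 to 0.16 for Ermn, -0.080 to 0.011 for Gpr37 and -0.058 to 0.085 for Tmprss5. The thalamus gave -0.039 to 0.071 for Sox10, -0.062 to 0.039 for Olig1, -0.00049 to 0.18 for Olig2, -2.13 to 0.45 for Ttr and -0.062 to 0.041 for Gpr37, and the interaction of Mog ran from -0.073 to 0.040. The cause was not tested. Over all loci, edgeR turned the split of the interaction calls (427 higher and 711 lower by limma, 566 and 524 by edgeR). Every member had at least 2109 fragments in every library, and each group held 6 rats; what limits the number of calls was not tested.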
